A study of Mus musculus with 10 samples.

Results

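The genes described here differed between GFP+ and GFP- tumour cells in opposite directions in 2 classes of malignant peripheral nerve sheath tumour (MPNST) models. Cells carrying a transgene that the submitters call CGD were sorted as GFP+, and the tumour cells without GFP signal as GFP-, from allografts of 5 mouse MPNST models labelled A to E, and total RNA of each population was sequenced. Fresh allografts were dissociated with collagenase, and wild-type and dead cells were removed by the FACS gates, so both populations are sorted tumour cells and the GFP- cells are the reference. Each model gave 1 GFP+ and 1 GFP- library, 10 in all. The labels give no further genotype, strain, age, treatment or passage, do not say which promoter drives the transgene, and do not say how many tumours or host animals entered a library.

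Models B, C and D had Sox10 at 10 CPM (CPM is a gene's read count scaled to a common total of reads in genes) or more in the GFP+ library and are called Sox10-high; models A and E had it below 1 CPM and are called Sox10-low. Genes were chosen by the sign of the log2 CPM difference, GFP+ minus GFP-, within each model. Of 13986 genes with enough reads to be tested, out of 46517 in the tables, 7512 had class means of opposite sign (53.7% of the tested genes). A stricter set of 1790 genes (12.8%) had 1 sign in each of B, C and D and the other sign in each of A and E. In this set 932 genes (6.66%) were positive in the Sox10-high and negative in the Sox10-low models, and 858 (6.13%) were the reverse. Because the same differences selected the genes, their values are given as a description, without a test.

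MPNSTs are soft tissue sarcomas of the Schwann cell lineage, in which loss of the RAS regulator neurofibromin is common. SOX10 is the transcription factor that specifies Schwann cells and their neural crest precursors. In peripheral nerve, Schwann cells lie on a basement membrane of laminin and type IV collagen, and fibroblasts lay down the interstitial collagens around them. Insulin-like growth factor 1, encoded by Igf1, is a secreted growth factor whose access to its receptor is set by binding proteins and by the proteases that cleave them.

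Sox10 was measured at 17.1 against 1.63 CPM in B, 52.6 against 7.65 in C, 112 against 3.69 in D, 0.111 against 0.0514 in A and 0.434 against 0 in E (GFP+ against GFP- throughout). No model lay between 1 and 10 CPM in its GFP+ library. The low values rested on few reads, 2 and 1 in model A and 9 and 0 in model E. Sox10 was higher in the GFP+ than in the GFP- library of all 5 models, so it defines the classes and is not itself an opposite-sign gene. S100b ranged from 0 to 2.93 CPM over the 10 libraries. Erbb3, the neuregulin receptor of Schwann cells, stood at 5.17 against 0.906 CPM in B, 13.7 against 4.62 in C, 64.9 against 2.07 in D, 1.11 against 0.617 in A and 1.16 against 0.759 in E. It was thus higher in GFP+ than in GFP- cells of all 5 models, and its GFP+ levels did not overlap between the classes. The Schwann lineage list, which includes Sox10, summed to 609 to 1080.1 CPM in GFP+ and 466 to 559 in GFP- libraries of the Sox10-high models, and to 405 to 448 and 334 to 405 in those of the Sox10-low models. Pdgfra, a receptor typical of fibroblasts and mesenchymal precursors, stood at 659 to 2470 CPM in every library. The other fibroblast markers varied more: Dcn from 68.6 to 10149, Col1a1 from 2087 to 12271 and Lum from 0.905 to 60.5 CPM. Summed over the fibroblast list, levels were 19865 to 42015 CPM in GFP+ and 20908 to 50722 in GFP- libraries of the Sox10-high models. In the Sox10-low models they were 21951 to 39718 and 22297 to 29371.

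The libraries held 15978673 to 22082207 reads in genes. Defining markers of blood and endothelial cells were mostly near 0: Ptprc at most 0.453, Adgre1 at most 0.213, Cd3e at most 0.108, Pecam1 at most 1.31 and Cdh5 at most 1.13 CPM. Cd68, a macrophage marker that other cells also express, stood at 6.07 to 16.6 CPM in every library, and the pericyte markers Rgs5 and Cspg4 at 0.706 to 63.8 and 23.2 to 82.4. The macrophage and myeloid list summed to 20.3 to 54.9 CPM in GFP+ and 13.4 to 59.6 in GFP- libraries of the Sox10-high models, against 25.3 to 25.9 and 18.0 to 31.2 in the Sox10-low models. Summed over the endothelial list, levels were 16.1 to 31.9 CPM in GFP+ and 15.4 to 42.1 in GFP- libraries of the Sox10-high models, against 8.20 to 16.7 and 6.02 to 13.3 in the Sox10-low models. The pericyte sum was 165 to 453 CPM in GFP+ libraries of the Sox10-high and 267 to 450.5 in those of the Sox10-low models. It was 152 to 998 CPM in GFP- libraries of the Sox10-high models and 340 to 446 in those of the Sox10-low models. The keratin Krt8 varied from 0.226 to 229 CPM over the libraries, while Epcam reached at most 4.39. The part that remaining cells of these types had in the differences below was not tested. Fewer cells of a type and less RNA per cell cannot be told apart in these bulk libraries.

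**Figure D1:**
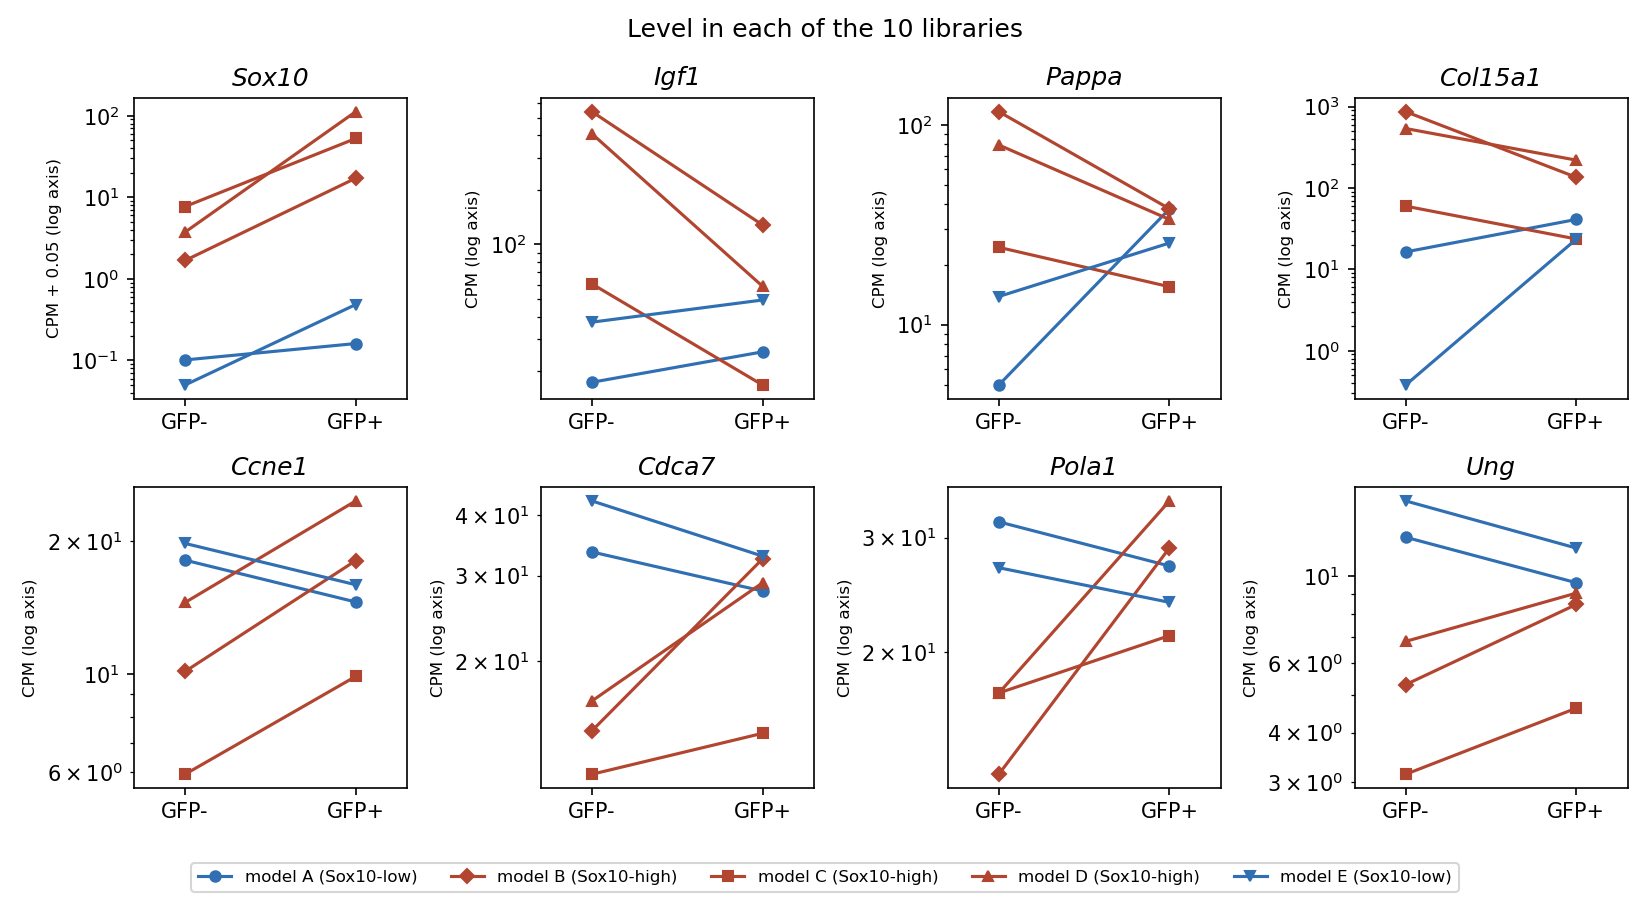
CPM on a log axis for 8 genes in the GFP- and GFP+ library of each model (0.05 added for Sox10), with a line joining the pair, Sox10-high models in red and Sox10-low models in blue. For Igf1, Pappa and Col15a1 the red lines go down and the blue lines up, and for Ccne1, Cdca7, Pola1 and Ung the reverse.

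The opposite-sign differences were small for most genes and larger among those negative in the Sox10-high models. The 858 such genes had a median class mean of -0.35 in the Sox10-high and 0.30 in the Sox10-low models. For the 932 genes of the other direction the medians were 0.23 and -0.21. Requiring that the smallest of the 5 differences be more than 0.5 on the log2 scale left 29 of the 858 and 2 of the 932. Of all 13986 tested genes, whatever their signs, 221 passed this limit. The 2 sets also differed in level, with a median log2 CPM of 4.43 for the 858 and 5.33 for the 932, beside 4.59 over all tested genes. The part of level in the size of the differences was not tested. The rule turns on small values at its edge: Sub1 lies just inside it, with a difference of 4.7e-05 in model C, and Fbxo8 just outside, with -0.017 in model D.

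The separation lay more often in the GFP- libraries. Among the 858 genes negative in the Sox10-high models, 373 had all 3 GFP- levels of the Sox10-high models above both of the Sox10-low models, while 80 had the GFP+ levels of the Sox10-high models all below. Among the 932 genes of the other direction, 477 had the GFP- levels of B, C and D all below those of A and E, and 123 had the GFP+ levels all above. Over all tested genes these counts were 2082 and 1343, and 2309 and 1608. As a description across genes, which are not independent replicates, Spearman's rho of the differences was 0.53 between models B and D, 0.22 between A and E, 0.11 between B and C and 0.08 between C and D. Model C had values of -0.02 with A and 0.02 with E, so by this measure it lay little nearer to its own class than to the other. The values of B and D were -0.09 and -0.12 with A, and 0.07 and 0.03 with E.

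Fitted over all 13986 genes with edgeR's quasi-likelihood test, the interaction of population with class was called for 2 genes (0.0143%) at an adjusted p of 0.05, both negative in the Sox10-high models; at an unadjusted p under 0.05 there were 1811, of which 789 were positive and 1022 negative. With 3 residual degrees of freedom, the call depends on the tool and on the models: DESeq2 called 234 genes, limma voom 0, and the fit without model C 56, while leaving out A, B, D or E gave 0. Scaling moved the balance of signs. Of the strict set 52.1% were positive in the Sox10-high models under TMM scaling, 62.3% (1179 of 1891) under library totals alone and 46.1% (814 of 1766) under DESeq2's size factors, so which direction holds more genes depends on the scaling. Of the 74 strict genes among the 77 named, Ier3 lost its sign in B and Spry4 in E under library totals, and 0 did under DESeq2's size factors.

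**Figure D2:**
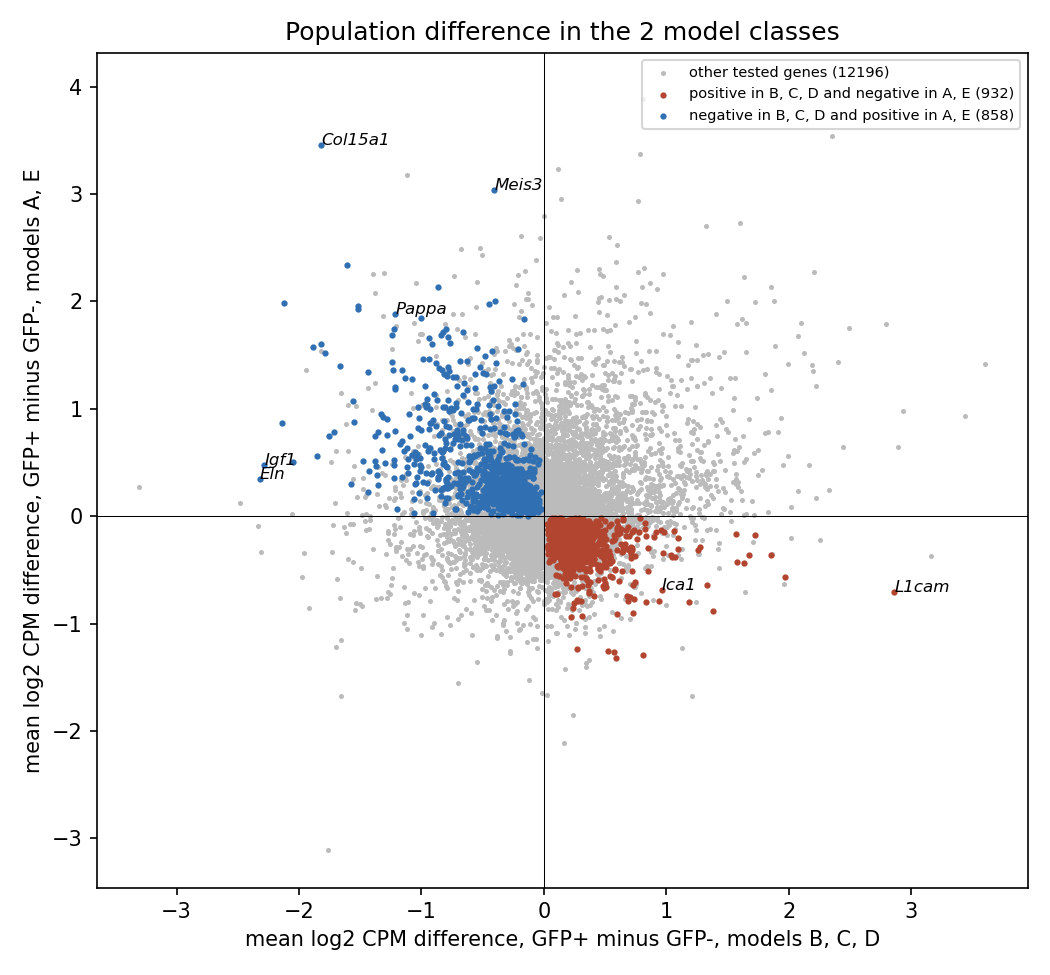
Mean log2 CPM difference, GFP+ minus GFP-, in the Sox10-high models (x) against the Sox10-low models (y) for 13986 tested genes. The 858 genes in blue fill the upper left and the 932 in red the lower right by the rule that chose them, and the blue points reach farther from 0.

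The 2 called genes were Meis3, a homeodomain transcription factor, and Gbp9, a member of the interferon-induced guanylate-binding proteins; both are named for their call, after their values were seen. Meis3 (chr7:16175090-16186504, plus strand, GENCODE vM21 on GRCm38) was measured at 36 against 42.8 CPM in B, 9.29 against 11.3 in C, 26.8 against 38.7 in D, 11.3 against 1.44 in A and 2.36 against 0.163 in E. The GFP- libraries of A and E held 28 and 3 Meis3 reads, and those of B, C and D 206 to 945. Its mean difference was -0.40 ± 0.16 (SD, n = 3 models) in the Sox10-high and 3.04 ± 0.26 (SD, n = 2 models) in the Sox10-low class, a difference between the classes of -3.55 (SE 0.30), or -4.24 without model A. Gbp9 (chr5:105077630-105139539, minus strand, same annotation) was measured at 43.6 against 84.8 CPM in B, 14.8 against 22.1 in C, 61.4 against 98.3 in D, 9.95 against 3.24 in A and 12.2 against 3.53 in E. All 3 Sox10-high models had less Gbp9 in GFP+ than in GFP- cells and both Sox10-low models had more, with class means of -0.79 ± 0.22 (SD, n = 3 models) in the Sox10-high and 1.67 ± 0.15 (SD, n = 2 models) in the Sox10-low class and a fitted class difference of -2.49 (SE 0.20). The guanylate-binding proteins form a family of close copies. Multimapping reads were left out of the counts, so reads that Gbp9 shares with its copies may be missing from its values.

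Igf1 and 4 other genes of its pathway were lower in GFP+ cells of the Sox10-high models and higher in those of the Sox10-low models. Of 20 tested genes in the IGF list, 5 were strict opposite-sign genes in this direction (Pappa, Igf1, Igfbp3, Igfbp7 and the receptor adaptor Irs2) and 0 in the other. The shares over all tested genes were 6.13% and 6.66%. Over the list the median fitted class difference was -0.70, and 16 of 20 values were below 0, beside a median of 0.00074 and 6979 of 13986 below 0 over all tested genes. Igf1 (chr10:87858265-87937042, plus strand, in GENCODE vM21 on GRCm38) stood at 128 against 539 CPM in B, 16.8 against 60.5 in C, 58.7 against 407 in D, 25.6 against 17.4 in A and 49.4 against 37.3 in E. The GFP- libraries of B, C and D lay above those of A and E, while the GFP+ libraries of the classes overlapped. The log2 differences were -2.14, -1.87 and -2.84 in B, C and D and 0.53 and 0.42 in A and E, and the fitted class difference was -2.77 (SE 0.29).

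Pappa, a metalloprotease that cleaves IGF-binding proteins and frees the ligand, was measured at 38 against 116 CPM in B, 15.5 against 24.4 in C, 33.6 against 79.4 in D, 38 against 4.99 in A and 25.6 against 13.8 in E. Its GFP+ levels overlapped between the classes, and its GFP- level was lowest in model A. Igfbp3, the main carrier of IGF in serum, stood at 465 against 1247 CPM in B, 478 against 626 in C, 682 against 1766 in D, 1226 against 649.7 in A and 598 against 533 in E. The difference of Igfbp7, a further secreted binding protein, was small outside B and D: -2.54, -0.057 and -1.0 in B, C and D and 0.094 and 0.044 in A and E. Without model B its fitted class difference went from -1.28 to -0.62, so that value rests largely on B.

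Some interstitial matrix genes had the same signs. Of 23 tested collagen and matrix genes 8 (Col14a1, Eln, Col5a2, Col3a1, Sparc, Fbn1, Loxl1 and Col1a1) were negative in all Sox10-high and positive in both Sox10-low models, and 0 the reverse. Of all tested genes, 6.13% and 6.66% were so. In the list 19 of 23 fitted class differences were below 0, with a median of -0.49. Without model E the strict count was 13 of 23, beside 12.6% of all tested genes in this direction. It was 9, 8, 9 and 8 without A, B, C and D, where as many signs had to match. Eln, which encodes elastin, was measured at 53.8 against 358 CPM in B, 8.91 against 22.8 in C, 141 against 938 in D, 99.8 against 71.7 in A and 33.3 against 28.4 in E. Its largest differences were those of B and D, and the differences of A and E were small: -2.80, -1.37 and -2.79 in B, C and D and 0.45 and 0.24 in A and E. Col5a2, a fibril-forming collagen chain, had differences of -0.70, -0.21 and -0.42 in B, C and D and 0.79 and 0.41 in A and E. Col3a1, the chain of type III collagen, had differences of -0.28, -0.33 and -0.33 in B, C and D and 0.55 and 0.18 in A and E, even within the Sox10-high class. Col14a1, a fibril-associated collagen, stood at 4.15 against 15.9 CPM in B, 2.01 against 3.58 in C, 44.3 against 59.3 in D, 10 against 4.83 in A and 2.46 against 1.74 in E. Col1a1, one of the chains of type I collagen, had a smaller and less even pattern, -0.57, -0.064 and -0.82 in B, C and D and 0.48 and 0.027 in A and E, with the values of C and E close to 0.

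Among basement membrane genes, 5 of 18 tested (Col15a1, Lama2, Col4a1, Col4a2 and Lamb2) were negative in all Sox10-high and positive in both Sox10-low models, and 0 the reverse. Beside these stand 6.13% and 6.66% of all tested genes. In the list 14 of 18 fitted class differences were below 0, with a median of -0.33. Col15a1, a collagen associated with basement membranes, was measured at 135 against 867 CPM in B, 23.6 against 59.9 in C, 219.9 against 539 in D, 41.1 against 16.4 in A and 23.5 against 0.38 in E. The GFP- library of model E held 7 Col15a1 reads and the GFP+ library 488, so model E sets much of the class difference, which was -4.48 (SE 1.02) with all models, -7.77 without model A and -3.18 without model E. Lama2, the laminin chain of Schwann cell and muscle basement membranes, had differences of -2.29, -0.42 and -1.44 in B, C and D and 0.70 and 0.80 in A and E. The paired type IV collagen genes Col4a1 and Col4a2, which form the network of the basement membrane and lie side by side on chromosome 8, had similar differences: -0.93, -0.23 and -0.48 in B, C and D and 0.47 and 0.44 in A and E for Col4a1, and -0.77, -0.18 and -0.53 in B, C and D and 0.44 and 0.34 in A and E for Col4a2. Itgb4, a subunit of a laminin receptor, was measured at 27.2 against 93.2 CPM in B, 201 against 358 in C, 22.8 against 42.7 in D, 18.3 against 6.73 in A and 3.04 against 1.46 in E. Its level differed widely between models, from 1.46 CPM in the GFP- library of E to 358 in that of C.

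Proteases that act on matrix and their inhibitors were in the same set for 5 of 21 tested genes (Mmp3, Timp3, Timp2, Adamts2 and Mmp2), with 0 in the other direction, 18 of 21 fitted class differences below 0 and a median of -0.46. Strict members made up 6.13% of all tested genes in this direction and 6.66% in the other. Mmp3, stromelysin 1, was measured at 96.7 against 208 CPM in B, 16.8 against 34.4 in C, 137 against 215 in D, 78 against 48.4 in A and 39.7 against 11.8 in E. Its promoter is shown because Mmp3 is a textbook target of the AP-1 factors and its 250 bases before the start hold an AP-1 motif (TGANTCA, searched on both strands), in capitals. The sequence is from RefSeq, build GRCm38.p6, chr9:7445572-7445821, plus strand, with the first base of the motif at position -46 from the start.
Mmp3: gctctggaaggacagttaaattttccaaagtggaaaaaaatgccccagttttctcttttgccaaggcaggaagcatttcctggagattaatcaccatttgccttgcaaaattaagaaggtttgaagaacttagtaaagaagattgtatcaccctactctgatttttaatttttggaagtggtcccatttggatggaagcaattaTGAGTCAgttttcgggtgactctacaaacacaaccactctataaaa
This motif was in 5.07% of 493 promoters of genes negative in the Sox10-high models, 3.40% of 589 of the other direction, and 4.04% of 8265 of all tested genes with a single promoter in the table. These shares lie near each other, and a match of letters is not a bound site. Timp3, a matrix-bound inhibitor of metalloproteases, had differences of -1.31, -0.84 and -0.25 in B, C and D and 0.78 and 0.90 in A and E. Adamts2, which trims the ends of fibrillar procollagen, had differences of -0.22, -0.12 and -0.30 in B, C and D and 1.01 and 0.60 in A and E.

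Some signalling genes were among those negative in the Sox10-high models; their counts are to be read beside the 6.13% negative and 6.66% positive over all tested genes. From the list of RAS and MAPK output, 3 of 19 tested were strict members (Spry1, Spry4 and Ier3), all in this direction, and 14 of 19 fitted class differences were below 0. Ier3 stood at -0.0063 in B and Spry4 at 0.0094 in E. Both lost that sign under library totals, so their membership depends on the scaling. Spry1, a feedback inhibitor of RAS signalling, was measured at 28.3 against 39.4 CPM in B, 36.4 against 59.1 in C, 90.3 against 196 in D, 309 against 160.3 in A and 61.6 against 48.8 in E. Its GFP- levels overlapped between the classes, with the lowest in B and E. Among growth factors and receptors, 3 of 32 were in this direction (Egfr, Pdgfc and Fgfr1) and 1 in the other (Kitl), so few that nothing is read from the count. Egfr, the epidermal growth factor receptor, had differences of -0.43, -0.72 and -0.18 in B, C and D and 0.37 and 1.25 in A and E, and Kitl, the ligand of the receptor Kit, 1.35, 0.071 and 0.49 in B, C and D and -0.31 and -0.35 in A and E. Hes1, a transcriptional repressor downstream of Notch, stood at 30.1 against 72.8 CPM in B, 18.2 against 29.6 in C, 41.9 against 70.2 in D, 26.1 against 19.9 in A and 24.5 against 7.48 in E. Hes1 lies on chromosome 16, where the median difference of all tested genes was -0.60 in B and -0.35 in D. Of 11 tested Notch genes, Hes1 and Dll1 were strict members, both negative in the Sox10-high models.

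From the TGF-beta and BMP list, 3 of 24 were strict members (Grem1, Skil and Gdf10), all negative in the Sox10-high models, beside 6.13% of all tested genes. Grem1, a secreted BMP antagonist, had differences of -1.83, -0.38 and -0.49 in B, C and D and 0.79 and 0.28 in A and E, and without model B its fitted class difference went from -1.43 to -0.97. From the list of axon guidance and adhesion, 4 of 32 were negative in the Sox10-high models and 1 positive, beside 6.13% and 6.66% of all tested genes. Sema3c, a secreted guidance cue, had differences of -0.45, -0.35 and -0.55 in B, C and D and 0.90 and 1.17 in A and E, and its receptor subunit Nrp1 -0.52, -0.58 and -0.79 in B, C and D and 1.02 and 0.31 in A and E. Both were thus lower in GFP+ cells of B, C and D and higher in those of A and E.

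Genes of MHC class I and antigen presentation gave 4 strict members of 13 tested (H2-Q4, H2-K1, H2-D1 and Tap1), all negative in the Sox10-high models, beside 6.13% of all tested genes. These 4 genes lie near each other on chromosome 17, between 33996017 and 35385290, so they need not be independent. Of the list, 12 of 13 fitted class differences were below 0, with a median of -0.64. H2-K1, a classical class I heavy chain, was measured at 84.7 against 99.4 CPM in B, 116 against 139 in C, 254 against 269 in D, 86.7 against 76.6 in A and 93.7 against 37 in E. The difference of model E stood apart from the others: -0.30, -0.28 and -0.13 in B, C and D and 0.15 and 1.35 in A and E. Without E the fitted class difference went from -0.98 to -0.45. Class I genes are near-identical copies, so their single values are uncertain. In the interferon list, all 26 fitted class differences were below 0 (median -0.56), but 2 of 26 genes (Ifi27 and Isg15) had strict opposite signs. Both were negative in the Sox10-high models, as were 6.13% of all tested genes, so nothing is read from that count. The mean over the list was -0.18 in model A and 0.16 in model E. Without model A the count was 8 of 28, and without model E 7 of 28. Over all tested genes the negative share was then 9.79% without A and 12.6% without E.

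The remaining genes with the largest smallest difference in this direction were Parm1, Pcsk5, Nppc, Gria4, Ampd3, Plpp3 and Mndal. Gria4, an AMPA receptor subunit, was measured at 19.9 against 44.7 CPM in B, 12.2 against 17.6 in C, 20.5 against 46.5 in D, 4.67 against 0.925 in A and 15.5 against 5.42 in E. In model A it rested on under 1 CPM in GFP- cells. Pcsk5, a proprotein convertase, had differences of -0.80, -0.72 and -0.99 in B, C and D and 2.42 and 0.97 in A and E. Plpp3, a lipid phosphate phosphatase, was at 242 against 438 CPM in B, 50.6 against 77.5 in C, 200.2 against 343 in D, 219 against 149.5 in A and 71.3 against 39.9 in E, and Ampd3, which deaminates AMP, had differences of -0.53, -0.52 and -0.60 in B, C and D and 1.0 and 1.0 in A and E. Gas6, the ligand of the TAM receptor kinases, had differences of -2.64, -0.49 and -3.24 in B, C and D; in model E it had 16 reads in GFP+ and 0 in GFP- cells, and in model A 42 and 23, so the positive side of its pattern rests on few reads.

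**Figure D3:**
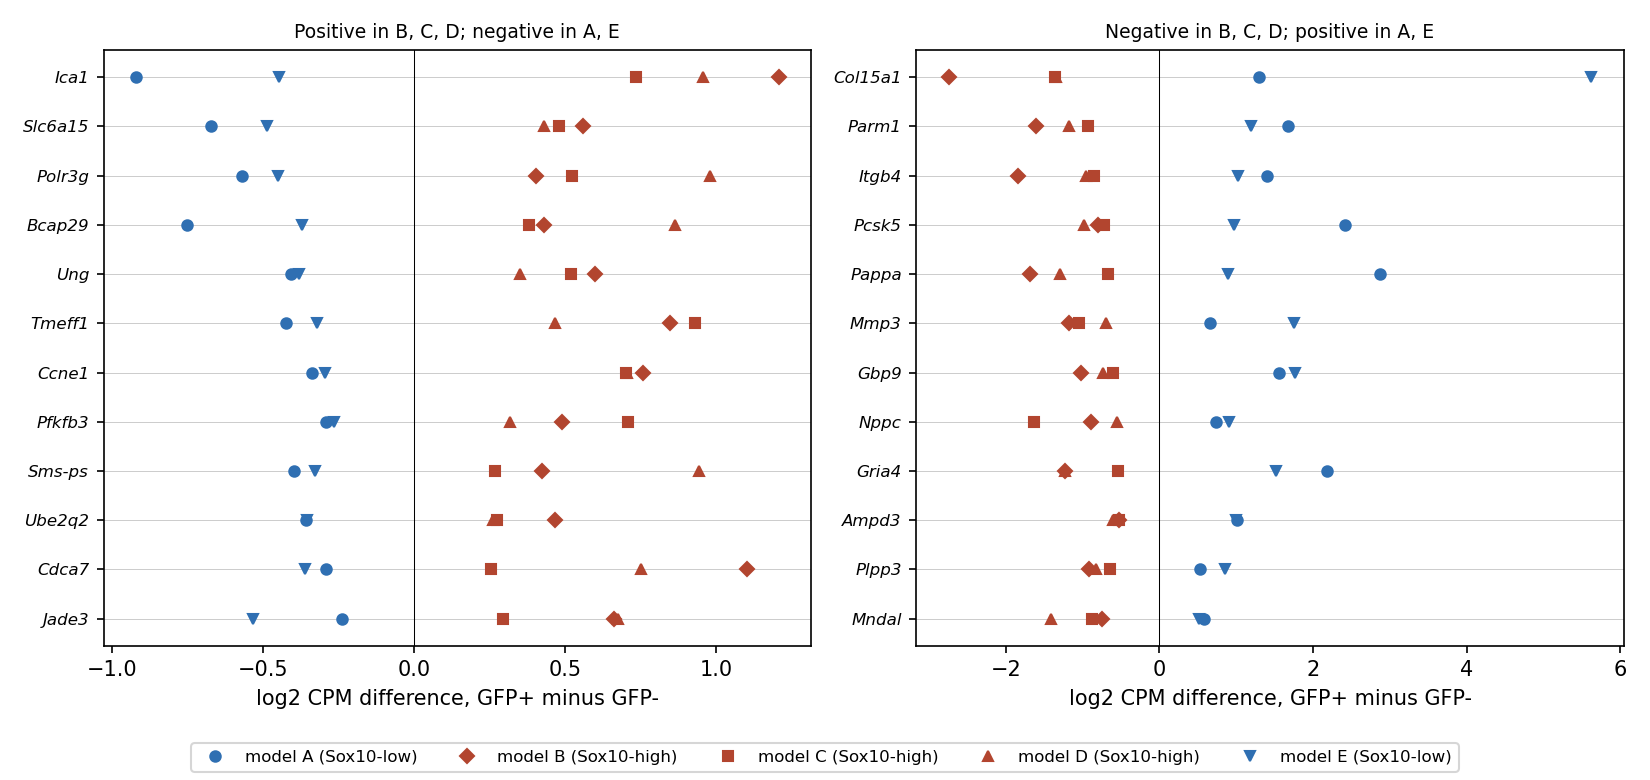
Log2 CPM difference, GFP+ minus GFP-, in each model for the 12 genes in each direction with the largest smallest difference over the 5 models, Sox10-high models in red and Sox10-low in blue. The x axes differ: the left panel reaches 1.21 (Ica1 in B) and the right 5.62 (Col15a1 in E).

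Several genes of the G1/S transition and DNA replication were higher in GFP+ cells of the Sox10-high models and lower, by small amounts, in those of the Sox10-low models. Of 32 tested replication genes 9 were strict members (Pola1, Orc6, Cdt1, Mcm7, Mcm2, Mcm4, Gins4, Mcm6 and Gins2), with 0 in the other direction. The shares over all tested genes were 6.66% and 6.13%. In the list 1 of 32 fitted class differences was below 0 and the median was 0.63. The list means were 1.03, 0.23 and 0.59 in B, C and D, against -0.11 in A and 0.10 in E. Without model E the strict count was 20 of 32, beside 9.92% of all tested genes in this direction. It was 9, 9, 10 and 10 without A, B, C and D, where as many signs had to match, so the rise was particular to leaving out E. The mitosis list did not show opposite signs to that extent: 2 of 28 were strict members in this direction (Ccnb2 and Bub1b), beside 6.66% of all tested genes. Without model E there were 12, beside 9.92% of all tested genes, and without A, B, C or D there were 2 each time. The mitosis list means were 1.72, 0.48 and 1.22 in B, C and D and 0.05 and 0.48 in A and E.

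Ccne1, cyclin E1, which starts S phase with CDK2, was measured at 18.1 against 10.1 CPM in B, 9.88 against 5.94 in C, 24.6 against 14.5 in D, 14.6 against 18.1 in A and 15.9 against 19.7 in E. Its differences were even within each class, 0.76, 0.70 and 0.70 in B, C and D and -0.34 and -0.29 in A and E, with a class difference of 1.05 (SE 0.20). Cdca7, a chromatin factor whose gene is controlled by the cell cycle, stood at 32.5 against 14.4 CPM in B, 14.2 against 11.7 in C, 29 against 16.6 in D, 27.9 against 33.6 in A and 32.9 against 42.7 in E. Its GFP- levels in A and E lay above those of B, C and D, and its GFP+ levels overlapped. Pola1, the catalytic subunit of DNA polymerase alpha, was measured at 28.9 against 13 CPM in B, 21.2 against 17.3 in C, 34.2 against 17.3 in D, 27.1 against 31.7 in A and 23.8 against 27 in E. Ung, which removes uracil from DNA, had class means of 0.49 ± 0.13 (SD, n = 3 models) in the Sox10-high and -0.39 ± 0.019 (SD, n = 2 models) in the Sox10-low class. Cdt1, which loads the replicative helicase, had differences of 1.27, 0.53 and 0.40 in B, C and D and -0.12 and -0.13 in A and E, and Mcm7, a subunit of that helicase, 0.73, 0.11 and 0.21 in B, C and D and -0.45 and -0.082 in A and E. The values of both genes in E, and of Cdt1 in A, lay close to 0.

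Promoters of Cdca7 and Pola1 are shown because both genes are in this set and their sequence before the start holds an E2F motif (TTTNNCGC, both strands, in capitals), E2F factors being the known activators of replication genes. The sequences are from RefSeq, GRCm38.p6: chr2:72475969-72476158, plus strand, 190 bases, cut before the first annotated exon, for Cdca7, and chrX:93632156-93632405, minus strand, 250 bases, for Pola1. The first base of the motif is at -71 and -138 from the RefSeq start.
Cdca7: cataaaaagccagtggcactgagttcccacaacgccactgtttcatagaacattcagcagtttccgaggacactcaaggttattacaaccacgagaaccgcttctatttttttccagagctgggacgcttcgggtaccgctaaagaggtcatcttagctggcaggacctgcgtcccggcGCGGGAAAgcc
Pola1: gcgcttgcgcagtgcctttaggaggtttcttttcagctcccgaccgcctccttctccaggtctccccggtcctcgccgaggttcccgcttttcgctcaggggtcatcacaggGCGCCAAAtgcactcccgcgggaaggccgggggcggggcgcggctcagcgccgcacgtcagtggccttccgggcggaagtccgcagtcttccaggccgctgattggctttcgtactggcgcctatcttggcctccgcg
In windows of 250 bases before the start the motif was in 9.68% of 589 promoters of this direction, 7.10% of 493 of the other, 7.94% of 8265 of all tested genes and 4.44% of all 22862 in the table. The first 3 shares differ little, and nothing follows from them about E2F binding.

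Other genes with the largest smallest difference in this direction were Ica1, Slc6a15, Polr3g, Bcap29, Tmeff1, Pfkfb3, Ube2q2, Jade3 and the pseudogene Sms-ps, whose value is uncertain because a pseudogene can resemble its parent gene. Ica1, a protein of secretory granules, was measured at 2.66 against 1.04 CPM in B, 20.8 against 12.3 in C, 8.66 against 4.26 in D, 6.28 against 11.8 in A and 10.1 against 13.9 in E. Slc6a15, a transporter of neutral amino acids, had differences of 0.56, 0.48 and 0.43 in B, C and D and -0.67 and -0.49 in A and E. Polr3g, a subunit of RNA polymerase III, had differences of 0.40, 0.52 and 0.98 in B, C and D and -0.57 and -0.45 in A and E. Pfkfb3, whose product drives glycolysis, was at 29.5 against 20 CPM in B, 27.6 against 16.6 in C, 49.2 against 38.1 in D, 72.2 against 86.8 in A and 49.1 against 59.7 in E, with its GFP- level in A and E above that of B, C and D. In the hypoxia and glycolysis list 2 of 24 were strict members in this direction (Pdk1 and Pgam1), beside 6.66% of all tested genes, so nothing is read from the count. The list mean was below 0 in A alone, at -0.38, and 0.35 to 0.52 in the other models.

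Of the Schwann lineage genes, L1cam was a strict member in this direction and Egr2 in the other. L1cam, a cell adhesion protein of axons and Schwann cells, was measured at 12.4 against 1.4 CPM in B, 12.3 against 4.9 in C, 56.3 against 2.63 in D, 0.5 against 0.822 in A and 0.145 against 0.325 in E. In models A and E it had 16 reads or fewer in each library, so the negative sign there rests on very little. Egr2, a transcription factor of myelinating cells that is also an immediate-early gene, had differences of -0.69, -0.80 and -0.51 in B, C and D and 0.26 and 1.16 in A and E. Of 19 tested genes of the fibroblast list, 3 were strict members negative in the Sox10-high models and 1 positive. The shares over all tested genes were 6.13% and 6.66%, so nothing is read from the 1 positive gene. That gene was Dcn, which encodes the matrix proteoglycan decorin, at 140.0 against 68.6 CPM in B, 10149 against 9345 in C, 1462 against 1046 in D, 1789.9 against 1909.9 in A and 1833 against 2622 in E.

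**Figure D4:**
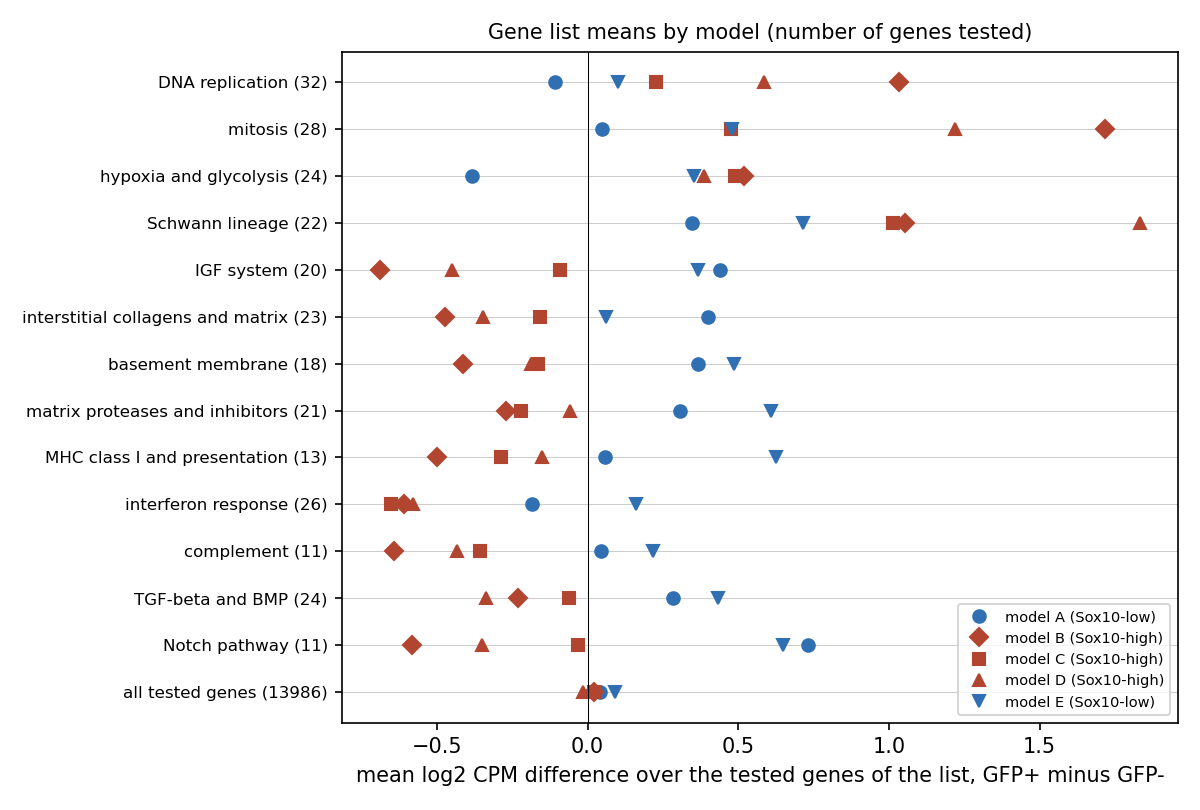
Mean log2 CPM difference, GFP+ minus GFP-, over the tested genes of 13 lists and over all 13986 tested genes, in each model. IGF, matrix, protease and Notch means lie below 0 in the Sox10-high models in red and above 0 in the Sox10-low models in blue, while mitosis means lie above 0 in all 5.

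The median difference of some chromosomes was shifted in some of the models, and that of chromosome 16 in both B and D. In model B 91.1% of 426 tested genes on chromosome 16 were lower in GFP+ than in GFP- cells, with a median of -0.60, and in model D 87.1%, with a median of -0.35. Chromosome 15 had a median of 0.36 in B and 0.19 in E, and chromosome 3 one of 0.22 in A. The share of tested genes with strict opposite signs also varied by chromosome: positive in the Sox10-high models for 1.17% of genes on chromosome 16 and 13.9% on chromosome 13, and negative for 11.7% and 1.99%. Chromosome X was close to chromosome 13, with 13.7% positive (66 of 482 genes) and 2.70% negative. The highest negative share was 12.8% on chromosome 11 (144 of 1122 genes), with 9.89% on chromosome 7; the chromosome 11 median was -0.11 in D and 0.11 in E. Itgb4, Igfbp3, Timp2, Adamts2, Egfr and Col1a1 lie on chromosome 11. Jade3, Sms-ps, Pola1 and L1cam, all positive in the Sox10-high models, lie on chromosome X. Xist, the RNA that coats the inactive X chromosome, had 103 CPM in the GFP+ library of model D and 2.82 in its GFP- library, beside values at or below 0.111 in model A and 523 to 1049 in B, C and E; it was named after its values were seen. The part of chromosome copy number or of clones in the opposite-sign differences was not tested. Centring each model on its chromosome medians gave 1786 strict genes, of which 1359 were among the 1790, and leaving out chromosomes 15 and 16 gave 1678 of 13003.

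**Figure D5:**
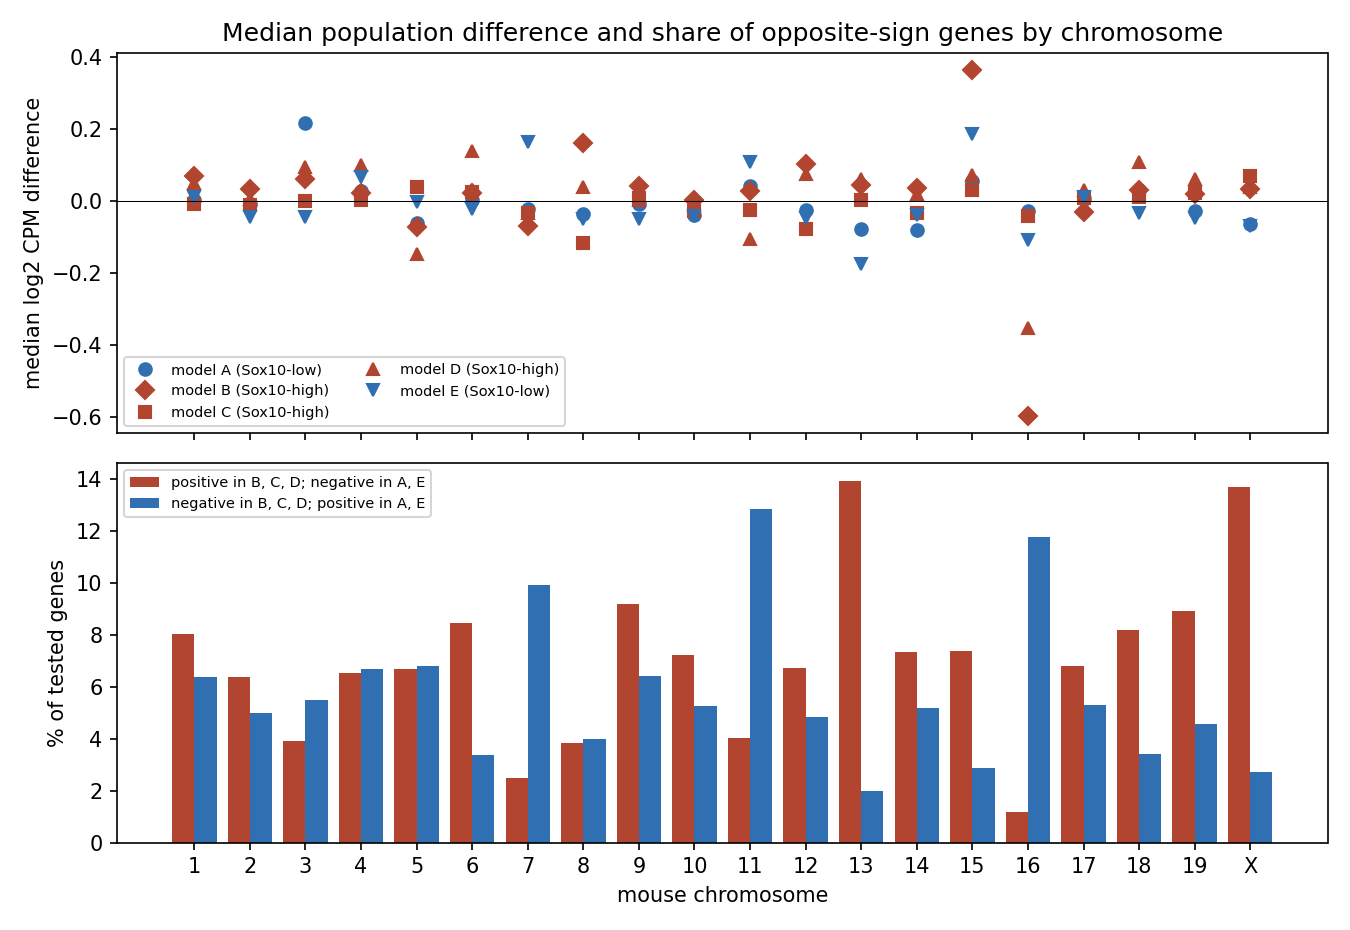
Top, median log2 CPM difference of the tested genes on each chromosome in each model; bottom, percent of tested genes with strict opposite signs in each direction. Chromosome 16 stands at -0.60 in model B and -0.35 in D, and its bars are 1.17% and 11.7%.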

How the data were processed

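The 10 deposited tables hold counts of reads per gene, made by the authors with STAR 2.4.2.8 on mm10 per the submitters' processing notes; the second-strand column, which held 96.9 to 97.1% of the strand-specific reads, was used. No source used here names the authors' annotation; 46005 of 46517 gene IDs matched GENCODE vM21. The 4 summary lines (21.3 to 24.3% of reads, of which multimapping 5.99 to 9.74%) were left out. 0 pairs of libraries were identical.

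Genes were filtered with filterByExpr and scaled with TMM in edgeR 4.0.16 (R 4.3.3). Differences use log2 CPM with a prior count of 2; levels are plain CPM. The interaction was fitted over all 10 libraries with the model letter as block and a GFP term per class; letters pair libraries of the same tumour model, as the series text states a paired comparison. p-values were adjusted by Benjamini-Hochberg. With 3 models against 2, an exact permutation test cannot go below 0.1, so none is given. Libraries are 1 per population and model, so p-values measure the spread between models. Members, classes and the 43 gene lists were chosen with earlier results of these data known. Some genes of the Schwann lineage list are not reported here.

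Named genes were Igf1 and Sox10, the 12 strict genes in each direction with at least 2 CPM in 1 library of every model and the largest smallest difference, and up to 4 strict members of each list with 3 or more; Meis3, Mcm2, Epcam, Xist and Nes were added after their values were seen. In simulated counts for 13817 genes with 200 altered, the interaction test recovered 40% of changes of 1 and 85% of changes of 2 on the log2 scale, and 5.3% of its calls were false. On the same simulated counts DESeq2 found 55% and 88%, with 18.3% false among the genes it called. The simulation gave unaltered genes no population difference and each altered gene the same change in every model of a class. Real differences varied between models of a class, so these percentages need not hold for the real counts. Alternatives were DESeq2 1.42.0, limma 3.58.1 voom, the likelihood-ratio test, other scalings, filters, prior counts, strands, no block and leaving out each model. Differences centred on chromosome medians, and the set without chromosomes 15 and 16, were added after seeing the data.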

Additional observations from a re-analysis of the deposited data

Results flagged for a closer look

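All 1790 strict genes had differences of one sign in every Sox10-high model and of the other sign in every Sox10-low model; the rule that chose them makes this so, and the difference was not tested. The means of 9 of the 43 gene lists had the same arrangement, also not tested. Some of the 43 had few or no tested genes. The mean of the Sox10-high models minus that of the Sox10-low models was -1.01 on the log2 scale for the Notch list, -0.81 for the IGF system, -0.69 for perineurial and endoneurial fibroblast genes and -0.68 for basement membrane. It was -0.65 for MHC class I and presentation, -0.64 for matrix proteases and inhibitors, -0.61 for complement, -0.57 for TGF-beta and BMP and -0.56 for interstitial collagens and matrix.

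A single model was flagged as far from the other 4 in 3 cases, by Dixon's gap ratio with a critical value of 0.71, which chance passes in about 5% of groups. The number of groups screened is not given, so the 3 flags cannot be weighed against chance. They are not a full list: the Xist difference was 5.08 in model D and 0.020 to 0.94 in the others, and was not flagged. The H2-K1 difference was 1.35 in model E. The mean of the hypoxia and glycolysis list was -0.38 in model A. The median of chromosome 7 was 0.164 in model E.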

How the results depend on the processing

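The interaction test called 2 genes of 13986 with the tumour model as replicate block and 0 without the replicate block, so the paired fit is the one with calls. Limma voom called 0, DESeq2 234, edgeR's likelihood-ratio test 336, and the fit with no filter on low counts 337 of 25762; leaving out 1 model gave 0 to 56. With library totals, DESeq2's size factors, the stricter filter and unstranded counts the number stayed at 2. The cause of these differences was not tested. The strict opposite-sign genes numbered 1790, and 2331 to 3209 when 1 model was left out, since fewer signs then had to match. The other settings gave 1678 to 2079. Of 1078 values of 77 named genes under alternatives, 1028 lay within the error of the value given, 48 moved and 2 reversed. Both reversals were of Sox10, whose fitted class difference was 0.57 (SE 5.49) with all models, -2.46 without model A and -0.038 without model D, with 2.58 without model E as the highest value. With 1 library per population and model, the precision is set by the number of models; at 0 to 9 reads the Sox10 values of A and E are limited by depth.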

Other observations

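Epcam, an epithelial adhesion molecule, was a strict opposite-sign gene, with differences of 0.31, 0.68 and 0.12 in B, C and D and -0.81 and -0.61 in A and E, at 0.917 to 4.39 CPM; it was named after its values were seen. Nes, the gene of nestin, an intermediate filament protein, had differences of 2.0, 1.0 and 1.74 in B, C and D, 1.39 in E and -0.17 in A, so model A alone differed in sign; it too was named after its values were seen. The immediate-early and heat shock list had 20 of 21 fitted class differences below 0, with a median of -0.77. Its 3 strict members were all negative in the Sox10-high models, as were 6.13% of all tested genes. The list mean was 0.75 in model E, -0.18 in A, and 0.13, -0.52 and -0.84 in B, C and D.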
